A study of Mus musculus with 20 samples.

Results

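Ribosome biogenesis was followed through 39 genes that encode the transcription machinery of ribosomal RNA, the small nucleolar ribonucleoproteins, and the processing and assembly factors of both ribosomal subunits. They were chosen by symbol, with earlier results of these data known, among 50559 genes counted in 20 mouse RNA-seq libraries. All 39 passed the filter on low counts that left 14333 genes for testing. Each group held 5 libraries. Tumors arose in young adult female C57BL/6J mice, wild type by their labels, after hydrodynamic gene transfer. This is a rapid tail vein injection that delivers plasmids to hepatocytes, here with a transposase that inserts them into the genome. Aldafermin+MYC tumors received MYC with Aldafermin, an engineered analog of the gut hormone FGF19. FGF19+MYC tumors received MYC with human FGF19. In the sgTrp53+MYC group, MYC was combined with a CRISPR plasmid against Trp53, so that Trp53 was edited in the transfected cells and not in the germline. All tumor groups thus shared the MYC transgene, which was driven by an EF1a promoter. The livers are labelled non treated, and the study states that its control livers were injected with a red fluorescent reporter plasmid. No group with MYC alone was sequenced, so what MYC does alone cannot be told apart from its combination with each partner. Each library came from a separate tumor or liver of its own mouse.

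Ribosome production starts in the nucleolus, where RNA polymerase I copies the ribosomal DNA into a long precursor. Box C/D and box H/ACA ribonucleoproteins modify this precursor, processome and assembly factors cut and fold it, and the pre-40S and pre-60S particles are then exported. Many of these genes are well known targets of MYC. In resting adult liver, where hepatocytes rarely divide, demand for new ribosomes is low compared with growing tissue.

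Each library held 18004977 to 66354724 reads assigned to genes, and the sgTrp53+MYC libraries were the deepest (54042455 and above). Levels are given as CPM, read counts normalised to library size after scaling by the trimmed mean of M-values (TMM), which sets the bulk of genes equal between libraries. Its factors were 0.615 to 0.682 in livers and 0.997 to 1.31 in tumors. Hepatocyte markers (10 genes, among them Alb, Apoa1 and Cps1) summed to 193771 to 245431 CPM in livers and 5661 to 31683 CPM in tumors, with all 10 detected in every group. In bulk tissue, fewer hepatocytes and less of these RNAs per cell cannot be told apart, and the part of this shift in the results that follow was not tested. Summed markers of sinusoidal endothelium (6 genes) were 201 to 329 CPM in livers and 38.5 to 135 CPM in tumors, and those of macrophages (6 genes) were 286 to 419 and 56.4 to 305 CPM. In each tumor group 1 macrophage marker was called higher than liver. Those called lower were 4 in Aldafermin+MYC, 3 in FGF19+MYC and 5 in sgTrp53+MYC tumors. Stellate and fibroblast markers (6 genes) were 287 to 395 CPM in livers and 88.6 to 982 CPM in Aldafermin+MYC tumors, where 1 library held the 982 CPM. They were 61.9 to 356 CPM in FGF19+MYC and 81.5 to 148 CPM in sgTrp53+MYC tumors. In each tumor group 3 of the 6 were called lower than liver and 1 higher. Cholangiocyte markers were 3.41 to 12.6 CPM in livers, 294 CPM in 1 sgTrp53+MYC library and 0.0496 to 3.55 CPM in the other tumors. T and NK cell, B cell and neutrophil markers summed to at most 22.7 CPM in any library. Erythroid markers were 127 to 279 CPM in livers and 15.1 to 539 CPM in tumors. Trp53 RNA, the target of the guide, was 18.7 to 79.9 CPM in sgTrp53+MYC tumors, 28.8 to 36.4 CPM in livers and 90.8 to 176 CPM in the other tumors. The Myc row was 1.35 to 7.42 CPM in tumors and 5.24 to 11.4 CPM in livers, and whether reads of the transgene can be assigned to it was not tested. The sgTrp53+MYC libraries lie in a table of their own with 11.1 to 14.6% of reads ambiguous between genes, against 3.03 to 6.30% elsewhere, so group and table cannot be told apart in any comparison with them.

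All 39 genes were higher in tumors than in livers, in each of the 3 tumor groups. Together they took 0.0904 to 0.107% of the gene reads of a liver and 0.935 to 1.36% of those of a tumor. Every gene was called higher by edgeR's quasi-likelihood test at an adjusted p under 0.05, where 38.4% of all genes tested were called higher in Aldafermin+MYC, 36.9% in FGF19+MYC and 36.9% in sgTrp53+MYC tumors. For every gene, the 5 tumor libraries of each group all lay above the 5 livers, which held for 31.3%, 32.4% and 28.8% of all genes. The 39 genes had a log2 fold change of 2.44, 2.51 and 2.56 in these groups (median), a 5.45-fold, 5.68-fold and 5.89-fold difference, beside 0.13, 0.06 and 0.07 over all genes. A change at least as high as that median was seen in 9.45%, 8.59% and 8.82% of all genes. The 3 comparisons share the same 5 livers. Without TMM, with library totals alone, the median over all genes moved to 0.97, 0.91 and 0.95, and the 39 genes remained above it by 2.30, 2.45 and 2.46.

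**Figure D1:**
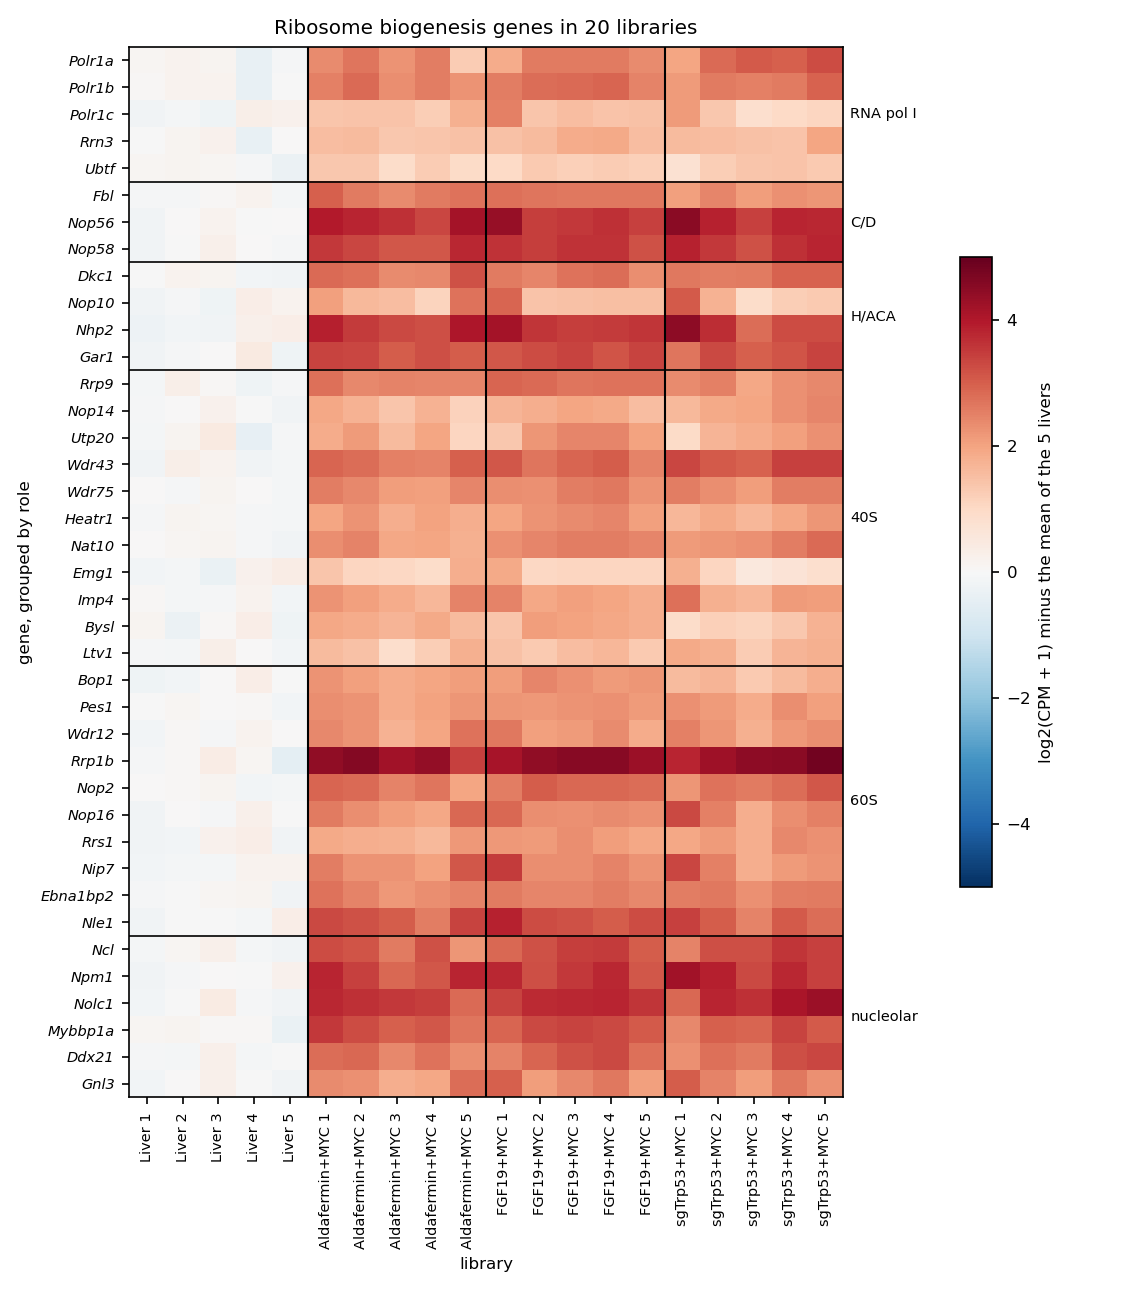
Each cell shows log2(CPM + 1) of a gene in a library minus the mean of that gene in the 5 livers, with genes in rows grouped by role and the 20 libraries in columns (red, higher than liver). All 39 rows are red in all 15 tumor libraries, with Rrp1b darkest and Emg1 and Ubtf palest.

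The sizes differed by role, from RNA polymerase I genes at the low end to box C/D genes at the high end. The median log2 fold change against liver in Aldafermin+MYC, FGF19+MYC and sgTrp53+MYC tumors was 1.49, 1.75 and 1.64 for the 5 genes of RNA polymerase I transcription. It was 2.01, 2.15 and 2.11 for the 11 genes of the small subunit processome and 40S maturation, and 2.46, 2.51 and 2.58 for the 10 genes of 60S assembly. The 4 box H/ACA genes stood at 3.09, 3.04 and 3.04, the 6 multifunctional nucleolar proteins at 3.04, 3.22 and 3.10, and the 3 box C/D genes at 3.47, 3.57 and 3.69. The order of the roles was not tested, and within each role the genes spread widely.

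**Figure D2:**
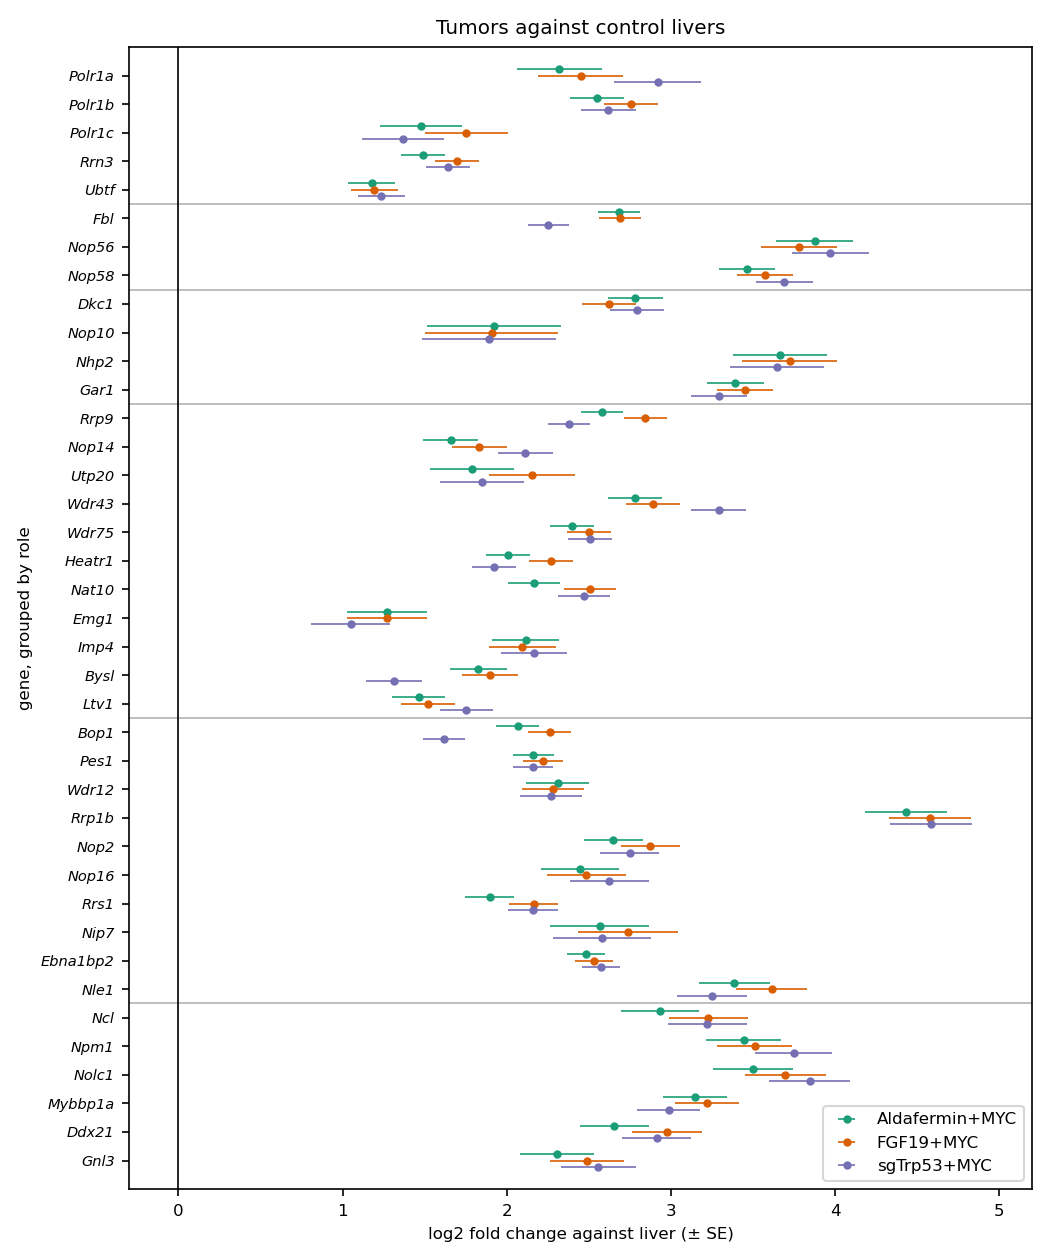
Points give the log2 fold change of each gene against liver in 3 tumor groups (colors) and bars its standard error, with genes grouped by role. Every point lies to the right of 1, and the sgTrp53+MYC points of Bop1, Bysl and Fbl lie to the left of the other colors.

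RNA polymerase I transcription rose least among the roles, with its 2 largest catalytic subunits ahead of the others. Ubtf, the factor that binds and opens the ribosomal DNA, was at 106, 109, 107, 93.6 and 81.1 CPM in the 5 livers. The tumor libraries held 255, 252, 188, 238 and 190.3 CPM in Aldafermin+MYC tumors, 196, 249, 229, 237 and 224 CPM in FGF19+MYC tumors and 166, 232, 258, 264 and 248 CPM in sgTrp53+MYC tumors. The lowest tumor library was thus above the highest liver, but by less than for most genes. The log2 fold change against liver was 1.18 ± 0.14 (SE) in Aldafermin+MYC (adjusted p = 5.9e-07), 1.19 ± 0.14 in FGF19+MYC (adjusted p = 5.0e-07) and 1.24 ± 0.14 in sgTrp53+MYC tumors (adjusted p = 3.0e-07). Polr1a encodes the largest subunit of the polymerase and was at 31.8, 34.2, 33.6, 23.01 and 29.2 CPM in the livers. In tumors it reached 160.0, 197, 146, 183 and 73.4 CPM in Aldafermin+MYC tumors, 111, 187, 189, 185 and 158 CPM in FGF19+MYC tumors and 120.1, 223, 261, 246 and 301 CPM in sgTrp53+MYC tumors. The tumor groups overlapped, with the fifth Aldafermin+MYC library lowest of all tumors and the fifth sgTrp53+MYC library highest. The other genes of the role were Polr1b (the second largest subunit), Polr1c (a subunit shared with RNA polymerase III) and Rrn3, which recruits the polymerase to its promoter. Polr1b ranged over 18.6 to 27.8 CPM in the livers and 112 to 197 CPM in the tumors, Polr1c over 27.2 to 39.4 CPM in the livers and 57.7 to 185 CPM in the tumors, and Rrn3 over 17.9 to 27.3 CPM in the livers and 61.3 to 94.3 CPM in the tumors.

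The box C/D ribonucleoprotein, which guides methylation of the ribosomal RNA, rose most as a role. Nop56, a core scaffold protein, was at 18.3, 21.1, 23.2, 20.3 and 20.8 CPM in the livers. Its tumor libraries held 338, 303, 273, 220.2 and 389.6 CPM in Aldafermin+MYC tumors, 443, 237, 248, 268 and 229 CPM in FGF19+MYC tumors and 488, 315, 229, 303 and 293 CPM in sgTrp53+MYC tumors. The first FGF19+MYC and the first sgTrp53+MYC library stood far above the rest of their groups. The log2 fold change against liver was 3.88 ± 0.23 (SE) in Aldafermin+MYC (adjusted p = 3.7e-11), 3.78 ± 0.23 in FGF19+MYC (adjusted p = 4.7e-11) and 3.97 ± 0.24 in sgTrp53+MYC tumors (adjusted p = 2.6e-11). Nop58, its partner in the same particle, had log2 fold changes of 3.47, 3.57 and 3.69 and 149 to 253 CPM in the tumors. Fbl encodes fibrillarin, the methyltransferase of the particle, and moved less, by 2.68, 2.69 and 2.25. It was at 42.3, 42.3, 45.3, 49.2 and 40.4 CPM in the livers. The tumors held 353, 267, 229.8, 269 and 289 CPM in Aldafermin+MYC tumors, 301, 283, 277, 275 and 280.0 CPM in FGF19+MYC tumors and 185, 244, 192, 218 and 207 CPM in sgTrp53+MYC tumors. Of the 5 sgTrp53+MYC libraries, 4 lay below all other tumors. A processed copy of the gene, Fbl-ps2, was counted on its own at 3.65 to 5.29% of the Fbl reads of each library, so that part of the Fbl signal may be split between them.

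Among the 4 box H/ACA genes, which form the particle that converts uridine to pseudouridine, 3 rose by a large step and Nop10 by a smaller, more variable one. Nhp2, an RNA-binding core protein, was at 17.4, 18.8, 18.5, 24.99 and 26.9 CPM in the livers. In tumors it reached 321, 244, 218, 206 and 361 CPM in Aldafermin+MYC tumors, 390.5, 261, 243, 249 and 263 CPM in FGF19+MYC tumors and 483, 281, 151, 211 and 207 CPM in sgTrp53+MYC tumors. Its log2 fold change was 3.66 ± 0.29 (SE, adjusted p = 1.3e-09) in Aldafermin+MYC and 3.72 ± 0.29 (adjusted p = 1.0e-09) in FGF19+MYC tumors. Gar1 ranged over 4.86 to 8.33 CPM in the livers and 41.8 to 70.5 CPM in the tumors. Dkc1, the pseudouridine synthase itself, ranged over 21.95 to 27.8 CPM in the livers and 128 to 235 CPM in the tumors, and Nop10, the smallest core protein, over 42.4 to 61.9 CPM in the livers and 93.3 to 424 CPM in the tumors. Nop10 had the widest standard error of the 39 genes, 0.41 in Aldafermin+MYC against liver.

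All 11 small subunit genes rose. Wdr43 and Rrp9 had the highest log2 fold changes and Emg1 and Ltv1 the lowest in Aldafermin+MYC and FGF19+MYC tumors. In sgTrp53+MYC tumors Wdr43 and Wdr75 were highest and Emg1 and Bysl lowest. Wdr43 belongs to the complex that first binds the precursor and was at 23.02, 32.1, 29.5, 23.5 and 24.7 CPM in the livers. Its tumor libraries held 202, 188, 156, 150.3 and 217 CPM in Aldafermin+MYC tumors, 233, 172, 203, 222 and 153 CPM in FGF19+MYC tumors and 279, 229, 210.0, 292 and 290.0 CPM in sgTrp53+MYC tumors. In the sgTrp53+MYC group, 3 of the 5 libraries lay above all other tumors. Rrp9, a protein of the U3 particle, was at 12.98, 17.2, 14.5, 11.95 and 13.5 CPM in the livers. Its tumors held 98.95, 78.8, 81.6, 81.1 and 79.6 CPM in Aldafermin+MYC tumors, 112, 104, 94.6, 98.1 and 95.99 CPM in FGF19+MYC tumors and 75.8, 84.6, 56.2, 71.2 and 78.6 CPM in sgTrp53+MYC tumors. The FGF19+MYC libraries were mostly the highest here. Emg1, a pseudouridine methyltransferase of the small subunit's ribosomal RNA, was at 64.6, 66.9, 57.03, 83.1 and 92.1 CPM in the livers. In tumors it reached 188, 152, 149, 137 and 252 CPM in Aldafermin+MYC tumors, 269, 149, 153, 154 and 153 CPM in FGF19+MYC tumors and 249.5, 153, 104, 115 and 130.4 CPM in sgTrp53+MYC tumors. The gap between groups was the narrowest of the 39 genes, the lowest tumor being 1.13 times the highest liver. The log2 fold change against liver was 1.27 ± 0.24 (SE) in Aldafermin+MYC (adjusted p = 1.3e-04), 1.27 ± 0.24 in FGF19+MYC (adjusted p = 1.3e-04) and 1.05 ± 0.24 in sgTrp53+MYC tumors (adjusted p = 7.9e-04). Emg1 lies at chromosome 6, 124641811 to 124689177, minus strand (GRCm39), where 69.2% of its exon bases overlap exons of Lpcat3 on the other strand. The strand setting of the counting is not given in the sources used here, and without strand the reads of such a pair cannot be told apart. Ltv1, a late pre-40S export factor, ranged over 13.2 to 17.9 CPM in the livers and 27.3 to 56.7 CPM in the tumors, and its log2 fold change was 1.46 ± 0.16 (adjusted p = 1.6e-07) in Aldafermin+MYC and 1.52 ± 0.16 (adjusted p = 9.8e-08) in FGF19+MYC tumors. Bysl, an assembly factor of the pre-40S particle, was at 23.5, 17.4, 22.1, 27.2 and 18.2 CPM in the livers. Its tumors held 83.97, 80.5, 72.6, 81.5 and 66.3 CPM in Aldafermin+MYC tumors, 57.2, 94.5, 88.4, 85.4 and 79.05 CPM in FGF19+MYC tumors and 40.9, 50.3, 47.2, 56.7 and 74.6 CPM in sgTrp53+MYC tumors. Against liver it was among the 3 smallest changes in sgTrp53+MYC tumors alone, at 1.31 ± 0.17 (adjusted p = 1.2e-06). The processome proteins Utp20, Heatr1, Wdr75 and Nop14 had log2 fold changes of 1.79, 2.15 and 1.85, of 2.01, 2.27 and 1.92, of 2.40, 2.50 and 2.51 and of 1.66, 1.83 and 2.11. Imp4, a U3 particle protein, ranged over 32.4 to 40.5 CPM in the livers and 113 to 243 CPM in the tumors, and Nat10, an RNA acetyltransferase, over 19.8 to 24.7 CPM in the livers and 80.7 to 169 CPM in the tumors.

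Rrp1b, a nucleolar protein of 60S assembly, showed the largest rise of the 39 genes in every tumor group. It lies at chromosome 17, 32255073 to 32282540, plus strand (GRCm39). Rrp1b was at 5.95, 6.42, 8.30, 6.69 and 4.18 CPM in the livers. Its tumor libraries held 152, 173, 133, 149 and 75.1 CPM in Aldafermin+MYC tumors, 123, 156, 166, 169 and 139.9 CPM in FGF19+MYC tumors and 99.2, 133, 158, 162 and 205 CPM in sgTrp53+MYC tumors. The fifth Aldafermin+MYC library was the lowest tumor, and still far above every liver. The log2 fold change against liver was 4.43 ± 0.25 (SE) in Aldafermin+MYC (adjusted p = 1.3e-11), 4.58 ± 0.25 in FGF19+MYC (adjusted p = 8.9e-12) and 4.59 ± 0.25 in sgTrp53+MYC tumors (adjusted p = 9.0e-12). These correspond to 21.6-fold, 23.9-fold and 24.02-fold.

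The 3 proteins of the PeBoW complex, which acts on the precursor of the large subunit, are Pes1, Bop1 and Wdr12. Pes1 and Wdr12 had log2 fold changes in the 3 tumor groups of 2.16, 2.22 and 2.16 and of 2.31, 2.28 and 2.27. Bop1 was at 34.1, 36.7, 40.6, 50.1 and 39.6 CPM in the livers. Its tumors held 194, 168, 147, 159 and 174 CPM in Aldafermin+MYC tumors, 175, 223, 197, 179 and 189 CPM in FGF19+MYC tumors and 122, 132, 101, 122 and 142 CPM in sgTrp53+MYC tumors. All 5 sgTrp53+MYC libraries lay below all 10 other tumors. Most of the other 60S factors rose by a similar step or more. Rrs1 had the lowest log2 fold change of the 10 genes in Aldafermin+MYC (1.90) and FGF19+MYC (2.16) tumors, and Bop1 in sgTrp53+MYC tumors (1.62). Nle1, which acts in late pre-60S remodelling, ranged over 3.52 to 5.34 CPM in the livers and 27.6 to 71.9 CPM in the tumors, and Nop2, an RNA methyltransferase, over 23.8 to 28.9 CPM in the livers and 106 to 234 CPM in the tumors. Nip7 ranged over 13.6 to 17.5 CPM in the livers and 56.4 to 183 CPM in the tumors, Nop16 over 23.5 to 32.2 CPM in the livers and 97.3 to 276 CPM in the tumors, and Ebna1bp2 over 22.1 to 27.4 CPM in the livers and 117 to 167 CPM in the tumors. Rrs1, which helps to bring the smallest of its ribosomal RNAs into the particle, ranged over 20.8 to 30.3 CPM in the livers and 74.8 to 131 CPM in the tumors. Of the 10 genes, Nle1, Rrs1 and Bop1 have the largest shares of exon bases under exons of the other strand, at 40.1%, 39.4% and 15.3%.

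**Figure D3:**
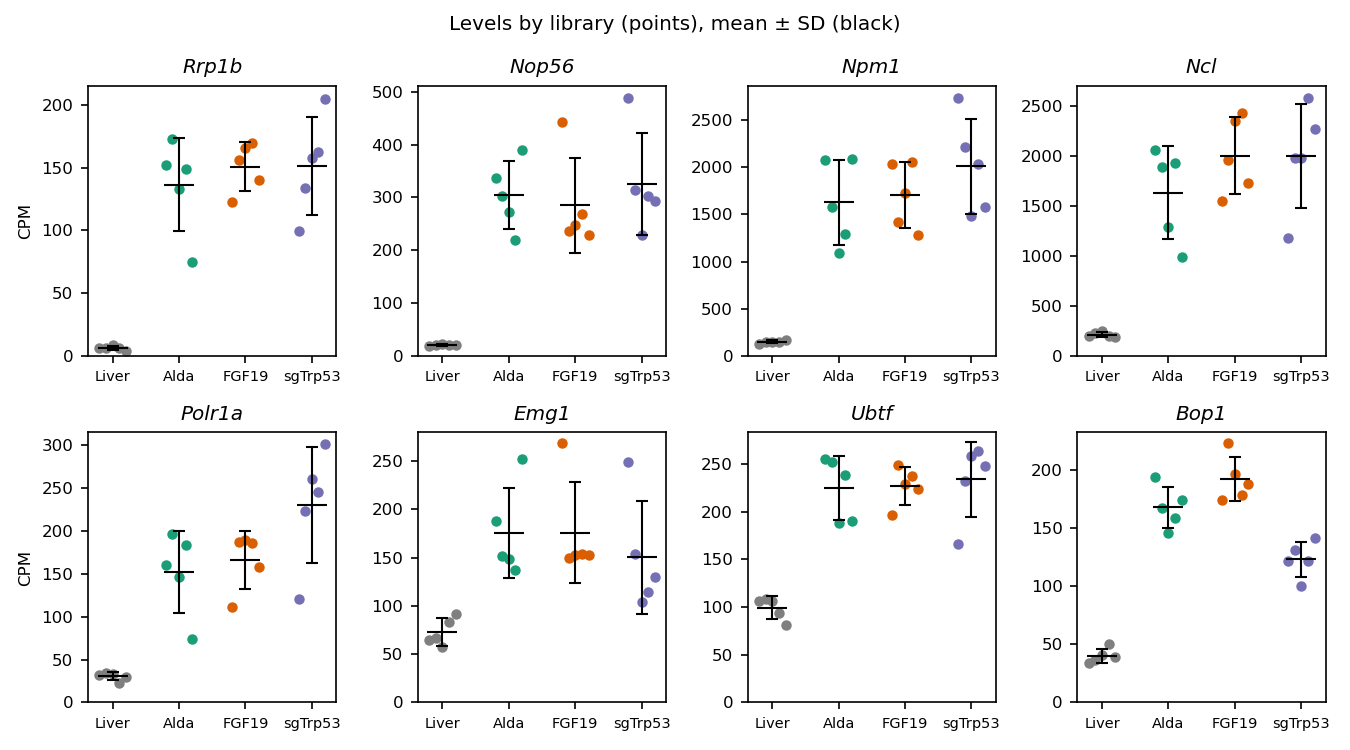
Points show CPM of 8 genes in each library of the 4 groups (Alda, Aldafermin+MYC, FGF19, FGF19+MYC, sgTrp53, sgTrp53+MYC), with the mean and SD of 5 libraries in black and axes from 0. Tumors lie above livers in every panel, by the most for Rrp1b and the least for Emg1, and the Bop1 panel shows sgTrp53+MYC below the other tumors.

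The most abundant reads came from nucleolin and nucleophosmin, the major structural proteins of the nucleolus. Ncl was at 200.4, 229, 253, 199 and 191 CPM in the livers. In tumors it reached 2062, 1897, 1295, 1937 and 996 CPM in Aldafermin+MYC tumors, 1548, 1962, 2354, 2439 and 1736 CPM in FGF19+MYC tumors and 1183, 1981, 1979.6, 2585 and 2278 CPM in sgTrp53+MYC tumors. Npm1 was at 131, 145, 153, 147 and 173 CPM in the livers. Its tumor libraries held 2083, 1581, 1095, 1291 and 2089.9 CPM in Aldafermin+MYC tumors, 2041, 1417, 1729.6, 2053 and 1282 CPM in FGF19+MYC tumors and 2733, 2212, 1486, 2035 and 1582 CPM in sgTrp53+MYC tumors. No liver came near any tumor for either gene, while the tumor groups overlapped with each other. Nolc1, a chaperone of the small nucleolar particles, was at 28.8, 31.4, 42.4, 30.5 and 28.3 CPM in the livers. Its tumors held 451, 409.5, 377, 357 and 231 CPM in Aldafermin+MYC tumors, 342, 439, 454, 463 and 396 CPM in FGF19+MYC tumors and 238, 458, 416, 564 and 646 CPM in sgTrp53+MYC tumors. In sgTrp53+MYC tumors it was the third largest change, at 3.85 ± 0.25 (SE, adjusted p = 7.5e-11). Mybbp1a, a nucleolar protein that binds transcription factors, ranged over 56.1 to 78.3 CPM in the livers and 385 to 831 CPM in the tumors. The helicase Ddx21 ranged over 46.7 to 59.02 CPM in the livers and 248 to 515 CPM in the tumors, and Gnl3, the GTPase nucleostemin, over 35.5 to 47.9 CPM in the livers and 144 to 331 CPM in the tumors.

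Further genes of the pathway followed the same direction. Of 126 other ribosome biogenesis genes, 122 were tested, and 116, 117 and 115 of them were called higher than liver in Aldafermin+MYC, FGF19+MYC and sgTrp53+MYC tumors. The median log2 fold changes were 1.58, 1.69 and 1.72, below those of the 39 genes. Ruvbl2, an ATPase of the complex that assembles small nucleolar particles, rose by 3.57 ± 0.14 (SE, adjusted p = 1.8e-13) in Aldafermin+MYC tumors. Tcof1, the treacle protein of ribosomal DNA transcription, rose by 3.43 ± 0.28 (SE, adjusted p = 1.8e-09) there and by 3.75 ± 0.28 (SE, adjusted p = 6.3e-10) in FGF19+MYC tumors, followed by Rrp12 at 3.62 ± 0.25 (SE, adjusted p = 2.3e-10). In sgTrp53+MYC tumors the largest were Ppan at 3.43 ± 0.14 (SE, adjusted p = 3.1e-13) and Naf1, an H/ACA assembly factor, at 3.40 ± 0.22 (SE, adjusted p = 6.9e-11). Over all genes 31.9%, 32.9% and 33.0% were called lower. The pathway genes called lower were Riok3 and Rcl1 in all 3 groups, joined by Pih1d1 in FGF19+MYC and sgTrp53+MYC tumors. Riok3, an atypical kinase of pre-40S maturation, was at -0.76 ± 0.12 (SE, adjusted p = 1.3e-05) in Aldafermin+MYC, -0.78 ± 0.12 (SE, adjusted p = 9.1e-06) in FGF19+MYC and -0.74 ± 0.12 (SE, adjusted p = 1.6e-05) in sgTrp53+MYC tumors. Rcl1, a protein of the small subunit processome, was at -0.52 ± 0.15 (SE, adjusted p = 0.0037) and -0.54 ± 0.15 (SE, adjusted p = 0.0026) in the first 2 groups. Pih1d1, a partner of Ruvbl2, was at -0.76 ± 0.17 (SE, adjusted p = 4.1e-04) in sgTrp53+MYC tumors.

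The promoters of the 39 genes were read for the E-box CACGTG, the sequence that MYC and its partner MAX bind. The letters read the same on both strands, and the windows ran from 250 bases before to 50 after the start (RefSeq, GRCm38.p6). Windows were found for 35 of the 39 genes. Fbl, Npm1, Bop1 and Rrs1 had none. The motif was in the windows of 9 of the 35 (25.7%), beside 8.09% of 27025 genes with a window. Those genes were not limited to the ones tested here, and the difference between the shares was not tested. The motif lay before the start in Rrn3 at positions -215 and -48, in Imp4 at -121 and in Nop2 at -60. The following stretches are shown because they place the motif upstream of the start, written 5′ to 3′ along the gene's strand with the motif in capitals. Those of Rrn3 are at chr16:13780449-13780698 (plus strand), of Imp4 at chr1:34439648-34439773 (plus strand) and of Nop2 at chr6:125131763-125131882 (plus strand).
Rrn3: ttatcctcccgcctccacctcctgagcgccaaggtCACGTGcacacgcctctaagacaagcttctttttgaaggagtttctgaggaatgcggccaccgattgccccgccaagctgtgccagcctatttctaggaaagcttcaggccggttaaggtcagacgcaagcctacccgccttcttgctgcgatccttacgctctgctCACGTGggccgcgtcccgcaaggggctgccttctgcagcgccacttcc
Imp4: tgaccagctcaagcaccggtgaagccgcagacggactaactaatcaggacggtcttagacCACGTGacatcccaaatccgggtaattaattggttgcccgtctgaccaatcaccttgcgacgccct
Nop2: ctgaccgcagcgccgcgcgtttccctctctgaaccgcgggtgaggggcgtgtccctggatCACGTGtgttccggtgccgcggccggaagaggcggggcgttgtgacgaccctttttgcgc

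In the other 6 genes the motif lay just after the start, at 3 in Pes1, 18 in Wdr43, 24 in Nle1, 29 in Ltv1, 38 in Utp20 and 41 in Mybbp1a, counted from 1 at the first transcribed base. The 30 bases around the motif are given for these to show that the flanks differ from gene to gene. They lie at chr11:3963965-3963994 (plus strand), chr17:71616220-71616249 (plus strand), chr11:82908355-82908384 (minus strand), chr10:13193092-13193121 (minus strand), chr10:88826765-88826794 (minus strand) and chr11:72441347-72441376 (plus strand).
Pes1: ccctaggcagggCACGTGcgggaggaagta
Wdr43: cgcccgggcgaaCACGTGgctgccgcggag
Nle1: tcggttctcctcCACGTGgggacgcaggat
Ltv1: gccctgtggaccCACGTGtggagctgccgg
Utp20: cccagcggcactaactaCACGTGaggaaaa
Mybbp1a: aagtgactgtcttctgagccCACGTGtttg

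The genes with the motif did not have the higher medians. The 9 genes with it had a median log2 fold change against liver of 2.16 in Aldafermin+MYC, 2.22 in FGF19+MYC and 2.17 in sgTrp53+MYC tumors. The 26 genes without it had 2.46, 2.52 and 2.58, Rrp1b and Nop56 among them. A match is only these letters in this window, and its absence says nothing about binding.

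Aldafermin+MYC and FGF19+MYC tumors were compared to see whether the analog and the natural hormone left different levels of these genes. None of the 39 was called, and neither was any of the 14333 genes (0%). At an unadjusted p under 0.05, 2 of the 39 and 1048 of all genes (7.31%) passed. With DESeq2 96 genes passed, and with a likelihood ratio test in edgeR 59, none of them among the 39. The median log2 difference was -0.11, with 34 of 39 genes lower in Aldafermin+MYC tumors, beside 0.02 over all genes. Leaving out 1 library moved that median from -0.19 (without Aldafermin+MYC replicate 5) to -0.055 (without Aldafermin+MYC replicate 3), and it was -0.17 without Aldafermin+MYC replicate 1 or FGF19+MYC replicate 5. The 3 smallest p-values belonged to Nat10, at -0.34 ± 0.15 (SE, adjusted p = 0.63), Rrp9, at -0.27 ± 0.12 (adjusted p = 0.65), and Heatr1, at -0.26 ± 0.13 (adjusted p = 0.7). Nat10 was at 117, 132, 90.1, 91.5 and 80.7 CPM in Aldafermin+MYC and 113, 129, 139.8, 138 and 127 CPM in FGF19+MYC tumors, so the groups overlapped. The 95% interval of the log2 difference lay within 1 of zero for all 39 genes. A p that misses the threshold does not show that the levels were equal.

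The pooled Aldafermin+MYC and FGF19+MYC tumors differed from sgTrp53+MYC tumors in 5 of the 39 genes, 4 higher and 1 lower. Bop1 was higher by 0.54 ± 0.11 on the log2 scale (SE, adjusted p = 0.0018), Bysl by 0.55 ± 0.15 (adjusted p = 0.011), Fbl by 0.43 ± 0.11 (adjusted p = 0.0062) and Rrp9 by 0.33 ± 0.11 (adjusted p = 0.03). Wdr43 was lower, at -0.46 ± 0.13 (adjusted p = 0.016). Over all genes, 11.6% were called higher and 12.1% lower, 23.7% in either direction, so the count among the 39 was below the background. Only Bop1 had no overlap between the 10 pooled libraries and the 5 others, as did 3.28% of all genes in that direction. The median over the 39 genes was -0.05. It ranged from -0.10 without sgTrp53+MYC replicate 3 to -0.0092 without sgTrp53+MYC replicate 5, and was -0.16 with no filter on low counts. The median over all genes was -0.02, and -0.13 with no filter. With a GC and length correction the median over the 39 genes turned to 0.013, and to 0.037 with a replicate block added, so it gave no stable direction. Of the 122 further pathway genes, 8 were higher and 12 lower, with Tbl3 (0.77 ± 0.11 (SE, adjusted p = 6.4e-05)) and Exosc5 (0.67 ± 0.22 (SE, adjusted p = 0.036)) at the top and Naf1 (-0.65 ± 0.17 (SE, adjusted p = 0.0086)) and Gnl2 (-0.56 ± 0.13 (SE, adjusted p = 0.004)) at the bottom. Without sgTrp53+MYC replicate 1, 8 of the 39 genes were called, adding Polr1a, Polr1c and Nop14. Over all 14282 genes then tested, 1817 were called higher and 1810 lower. Markers of other cell types moved in the same comparison. Of the 6 macrophage markers, 4 were called higher in the pooled tumors (median log2 difference 1.02), with summed levels of 83.7 to 305 CPM in Aldafermin+MYC, 114 to 232 CPM in FGF19+MYC and 56.4 to 104 CPM in sgTrp53+MYC tumors. Hepatocyte markers summed to 10652 to 24861, 11150.1 to 31683 and 5661 to 13921 CPM in these groups, with 3 of 10 called higher and 1 lower. All 3 cholangiocyte markers tested were called lower (median -6.33), where sgTrp53+MYC replicate 2 held 294 CPM, the other 4 sgTrp53+MYC libraries 0.749 to 3.37 CPM and the pooled tumors 0.0496 to 3.55 CPM. Without that library, 5 of the 39 genes were called, beside 1479 higher and 1509 lower of all 14253 genes then tested. The part of macrophages and hepatocytes in the differences was not tested.

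This comparison crosses the 2 tables and moved with base composition. Across the 39 genes the log2 difference had a Spearman correlation of 0.52 with the GC content of the transcripts (n = 39), and of 0.31 across 13794 genes, which share their libraries and are not independent. Fbl, Rrp9, Bysl and Bop1 have a GC content between 54% and 60.1%, and Wdr43 of 44.6%. The 11 genes at or above 54% had a median difference of 0.24, and the 28 others of -0.09. That cut lies just below Bysl, the lowest in GC of the genes called higher, so the split is no separate test. Exons of the other strand cover 15.3% of the exon bases of Bop1, 13.0% of Fbl, 9.77% of Bysl, 3.44% of Wdr43 and 0.5% of Rrp9. The 11 genes with at least 10% so covered had a median difference of 0.049, with 2 called. The 28 genes under 10% had a median of -0.053, with 3 called, where 23.7% of all genes tested were called. The part of this overlap and of the ambiguous reads in the comparison was not tested. With a GC and length correction, an alternative chosen after the data were seen, Bop1 (0.38, adjusted p = 0.034) and Bysl (0.44, adjusted p = 0.015) stayed past the threshold in edgeR's test. Fbl (0.17, adjusted p = 0.28), Rrp9 (0.15, adjusted p = 0.35) and Wdr43 (-0.32, adjusted p = 0.063) did not, while Polr1a and Heatr1 passed. Over all 13794 genes tested with this correction, 1641 were called higher and 1774 lower.

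**Figure D4:**
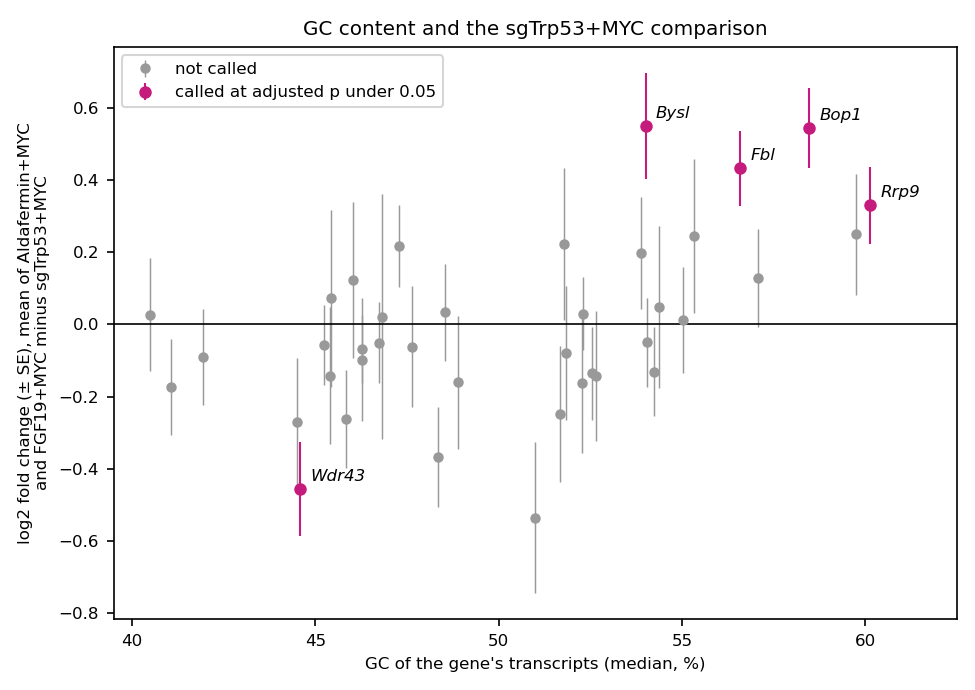
Each point is 1 of the 39 genes, with the GC content of its transcripts on the x axis and the log2 difference between pooled Aldafermin+MYC and FGF19+MYC tumors and sgTrp53+MYC tumors (± SE) on the y axis. The 4 genes called higher lie at 54% GC or above and Wdr43, called lower, at 44.6%.

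Libraries of a group also differed among themselves by transcript length. In FGF19+MYC replicate 1, sgTrp53+MYC replicate 1 and Aldafermin+MYC replicate 5, genes with short transcripts such as Nop10, Nhp2 and Emg1 were high within the group and long ones such as Polr1a and Utp20 were low. The Spearman correlation over the 39 genes, between the deviation from the other 4 libraries of the group and transcript length, was -0.52, -0.49 and -0.41 in these 3. It was -0.59 in sgTrp53+MYC replicate 2 and -0.40 and -0.36 in liver replicates 4 and 5, and reached 0.59 in sgTrp53+MYC replicate 5. Over 13794 genes it was -0.48, -0.52 and -0.45 in the first 3, the most negative of all libraries. With those 3 libraries left out together, all 39 genes were still called higher than liver in each tumor group, with median log2 fold changes of 2.33, 2.53 and 2.44. Of all 14148 genes then tested, 5671, 5488 and 5658 were called higher than liver. None of the 39 was called between Aldafermin+MYC and FGF19+MYC tumors. In the comparison with sgTrp53+MYC tumors, 8 of the 39 genes were then called, and Rrp9 was not (0.29, adjusted p = 0.055). Over all 14148 genes tested in that setting, 1880 were called higher and 2627 lower.

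**Figure D5:**
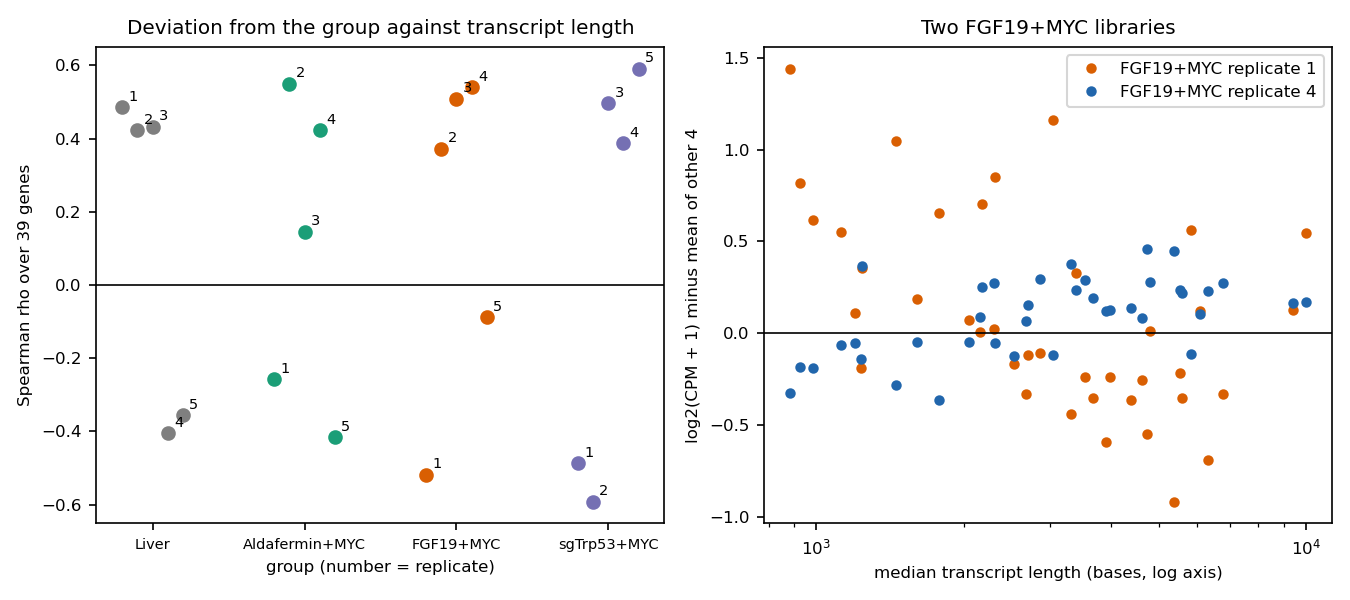
Left, the Spearman correlation over 39 genes between each library's deviation from its group and transcript length, by group, with replicate numbers. Right, that deviation against transcript length (log axis) for 2 FGF19+MYC libraries, where replicate 1 falls from short to long genes (correlation -0.52) and replicate 4 rises (0.54).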

How the data were processed

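The authors extracted RNA from snap-frozen single tumors and livers, made stranded mRNA libraries, sequenced them with paired reads, aligned these with HISAT2 to the mouse genome mm39, and counted reads per RefSeq gene with htseq-count. The deposited values are raw counts per gene symbol in 2 tables, the second holding the sgTrp53+MYC libraries alone. The strand setting of the counting is not given in the sources used here. The 5 htseq-count summary lines were left out of library sizes and tests. Their shares of all reads moved between the tables: 3.03 to 6.30% ambiguous and 15.3 to 34.0% not aligned in the first, 11.1 to 14.6% and 5.34 to 6.82% in the second.

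Genes with a CPM of at least 1 in at least 5 libraries were kept (14333 of 50559). All 20 libraries entered 1 edgeR (4.0.16) model with group as its term, TMM scaling and the quasi-likelihood test, and p-values were adjusted by Benjamini-Hochberg over all genes tested. Calls use a threshold of 0.05. Standard errors were taken from the log2 fold change and its F statistic. No 2 libraries of a group agreed within sampling noise. Replicates are separate mice, and the precision rests on 5 of them per group.

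Alternatives were other scalings, DESeq2 (1.42.0), a likelihood ratio test, other filters, fewer groups, a replicate block and each library left out. A GC and length correction, and leaving out 3 libraries together, were added after the data were seen. GC content and length are medians over GENCODE M39 transcripts (GRCm39). The fit was also run on simulated data in which few genes differed between groups. That run does not cover the scaling where many genes differ, as they did here. All 39 genes may be named with levels. Fold changes with errors are given for the 3 highest and 3 lowest against liver, for every member called between tumors or the 3 smallest p-values where none was, and for the 2 highest and 2 lowest called genes of the wider pathway list. The members and lists were chosen with earlier results of these data known.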

Additional observations from a re-analysis of the deposited data

Results flagged for a closer look

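In 19 of 156 sets of 5 libraries (39 genes in 4 groups), 1 library stood apart from the other 4 by Dixon's test, where chance gives about 7.8. Of these, 9 were values of FGF19+MYC replicate 1, each above its group. They were Polr1c at 185 CPM, Nop56 at 443 CPM, Nop10 at 379 CPM, Nhp2 at 390.5 CPM, Emg1 at 269 CPM, Imp4 at 204 CPM, Nop16 at 203 CPM, Nip7 at 183 CPM and Nle1 at 71.9 CPM. In sgTrp53+MYC replicate 1, Polr1c stood apart at 144 CPM and Nop10 at 424 CPM. Single values were those of Rrn3 in sgTrp53+MYC replicate 5 (94.3 CPM, high), Ebna1bp2 in sgTrp53+MYC replicate 3 (126 CPM, low) and Rrp9 in Aldafermin+MYC replicate 1 (99.0 CPM, high). Among livers they were Gar1 in replicate 4 (8.33 CPM), Nle1 in replicate 5 (5.34 CPM), Nolc1 and Ddx21 in replicate 3 (42.4 and 59.0 CPM), all high, and Mybbp1a in replicate 5 (56.1 CPM), low.

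The difference between the pooled Aldafermin+MYC and FGF19+MYC tumors and sgTrp53+MYC tumors passed edgeR's quasi-likelihood test for 5 genes, where 23.7% of all genes did. The log2 differences were 0.55 for Bysl, 0.54 for Bop1, 0.43 for Fbl, 0.33 for Rrp9 and -0.46 for Wdr43. The group and its table cannot be told apart here.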

How the results depend on the processing

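All 39 genes stayed called higher than liver in each tumor group under all 22 alternatives, and none was called between Aldafermin+MYC and FGF19+MYC tumors under any of 22. The median log2 fold change against liver in Aldafermin+MYC, FGF19+MYC and sgTrp53+MYC tumors rose to 3.28, 3.35 and 3.41 with library totals in place of TMM, which moved all genes alike. It was 2.63, 2.68 and 2.85 with no filter on low counts, and 2.70 in sgTrp53+MYC tumors with only the compared groups in the fit. In these last 2 settings the median over all genes moved too. With no filter it was 0.30, 0.24 and 0.36 over the genes of the main test, and the 39 genes remained above it by 2.33, 2.45 and 2.49. With only the compared groups it was 0.17 in sgTrp53+MYC tumors, and the 39 genes remained above it by 2.52. The cause was not tested for these settings. Leaving out each library in turn gave 2.41 to 2.63 for sgTrp53+MYC tumors, lowest without sgTrp53+MYC replicate 1. With library totals, 8618 genes were higher and 2405 lower in Aldafermin+MYC tumors, against 5506 and 4577 with TMM.

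Against sgTrp53+MYC tumors, 5 genes were called, and 4 to 8 when each library was left out. The count was 8 without sgTrp53+MYC replicate 1, and 8 with the 3 libraries high in short transcripts left out together (4 higher and 4 lower). Over all genes, 1817 were higher and 1810 lower of 14282 in the first setting, and 1880 and 2627 of 14148 in the second. Bop1 passed in 27 of 27 alternatives, Bysl in 26, Wdr43 in 25, Fbl in 24 and Rrp9 in 19. With no filter on low counts, Bysl (0.44, adjusted p = 0.058), Fbl (0.33, adjusted p = 0.10) and Rrp9 (0.22, adjusted p = 0.26) missed the threshold in edgeR's test.

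The replicate numbers of the titles belong to different mice. The correlation of deviations between same-numbered libraries ran from -0.28 to 0.48 over 30 pairs, with 7 above 0.1. By this measure 6 libraries correlated best with their own number. FGF19+MYC replicate 1 and sgTrp53+MYC replicate 1 shared the length trend described above (-0.48 and -0.52 over 13794 genes). A replicate block left the number of the 39 genes called at 39 in each comparison with liver, at 0 between Aldafermin+MYC and FGF19+MYC tumors, and at 5 against sgTrp53+MYC tumors. Over all 14333 genes, 5407, 5201 and 5123 were then called higher than liver in Aldafermin+MYC, FGF19+MYC and sgTrp53+MYC tumors. Against sgTrp53+MYC tumors, 1635 of all genes were called higher and 1485 lower. With the block and the GC and length correction together, 4 of the 39 were called against sgTrp53+MYC tumors, beside 1617 higher and 1594 lower of all 13794 genes tested. The 39 genes had 49 to 189833 reads per library, and the part of the greater depth of the sgTrp53+MYC libraries in the tumor comparisons was not tested.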
